A study of Mus musculus with 8 samples.

Results

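Wnt ligands, their receptors and the proteins that carry the signal to the nucleus were followed in the cortex of newborn mice with and without the R342X mutation in Phf6. The set holds 41 of the 53392 genes in the files. Its members are every gene with a Wnt or Frizzled (Fzd) symbol, the coreceptors Lrp5 and Lrp6, the secreted modulators Dkk3, Sfrp1 and Sfrp2, Ctnnb1 with the scaffolds Axin1 and Axin2, and the factors Lef1, Tcf7, Tcf7l1 and Tcf7l2. Counts and levels of all transcripts of a symbol were summed. By role there are 19 ligands, 10 receptors, 2 coreceptors, 3 extracellular modulators, 3 genes of beta-catenin and its destruction complex, and 4 TCF/LEF factors. All 41 are protein-coding in the GENCODE M21 annotation of the GRCm38 build. The members were picked by name, though with earlier results of these data known.

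Wnt proteins are secreted lipid-modified ligands that bind Frizzled receptors at the cell surface. In the canonical branch an LRP coreceptor joins the complex, the Axin-based complex that destroys beta-catenin is switched off, and beta-catenin enters the nucleus and turns on genes together with TCF/LEF factors. Other branches use Frizzled receptors without beta-catenin to set cell polarity and guide axons. In the developing cortex Wnt signals are known for patterning the medial cortex and hippocampus, for the balance of progenitor division against differentiation, and for the growth of blood vessels into the brain.

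The 8 libraries came from postnatal day 0 cortex of the FVB/N background, 4 labelled R342X mutant and 4 labelled wild type. The labels carry no name of an animal, litter, sex or batch, so p-values may measure only technical spread. The libraries held 30469745 to 39453169 estimated reads in mutants and 48841467 to 74266937 in wild type. Phf6, the mutated gene, which codes for a nuclear zinc finger protein, had 42.6, 39.3, 43.1 and 43.6 CPM in mutants 1 to 4, against 91.9, 77.8, 74.3 and 72.1 CPM in wild type 1 to 4, and was lower in mutants without overlap (log2 fold change -0.90, edgeR adjusted p = 0.00226). CPM are estimated reads as a part of the whole library, after scaling between libraries. On the first principal component of all genes, with 35.3% of the variance, mutants 1 to 3 stood with wild type 1 (set 1) and mutant 4 stood with wild type 2 to 4 (set 2). The sets come from the data, and genotype is unevenly spread over them. Within-set differences are therefore given for the members with values per library, where set 1 has 1 wild-type library and set 2 has 1 mutant library. All 9 cortical projection neuron markers checked reached 1 TPM in at least 1 library. How the allele was made and how many animals a library holds are not given in the labels.

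The promoters of a few members are shown because they stand out in the comparisons or because they hold a TCF/LEF motif. They are RefSeq sequences of GRCm38.p6, which is the C57BL/6J genome and not FVB/N. Each runs from 250 bases before to 50 bases after an annotated start. All are on the plus strand and read 5′ to 3′. Capitals mark a start codon in Wnt9a and in the second Lef1 window, and a motif match in Wnt3.
Wnt9a, chr11:59306680-59306979: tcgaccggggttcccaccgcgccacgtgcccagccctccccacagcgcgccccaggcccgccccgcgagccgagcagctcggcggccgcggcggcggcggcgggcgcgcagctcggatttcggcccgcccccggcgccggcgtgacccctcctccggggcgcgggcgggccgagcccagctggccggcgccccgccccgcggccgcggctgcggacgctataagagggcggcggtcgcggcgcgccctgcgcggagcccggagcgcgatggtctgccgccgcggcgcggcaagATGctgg
Axin2, chr11:108920099-108920398: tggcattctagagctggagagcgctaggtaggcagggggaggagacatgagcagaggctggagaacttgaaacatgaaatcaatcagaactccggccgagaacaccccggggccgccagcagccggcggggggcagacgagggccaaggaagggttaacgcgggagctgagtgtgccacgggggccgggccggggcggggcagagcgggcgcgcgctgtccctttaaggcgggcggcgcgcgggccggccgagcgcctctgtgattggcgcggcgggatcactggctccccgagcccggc
Lef1, upstream start, chr3:131110073-131110372: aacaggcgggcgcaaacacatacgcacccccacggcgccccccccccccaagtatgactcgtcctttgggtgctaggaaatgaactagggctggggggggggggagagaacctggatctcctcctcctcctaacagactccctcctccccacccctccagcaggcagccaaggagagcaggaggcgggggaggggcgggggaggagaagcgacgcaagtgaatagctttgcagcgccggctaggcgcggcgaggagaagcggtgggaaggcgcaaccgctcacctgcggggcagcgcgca
Lef1, downstream start, chr3:131112541-131112840: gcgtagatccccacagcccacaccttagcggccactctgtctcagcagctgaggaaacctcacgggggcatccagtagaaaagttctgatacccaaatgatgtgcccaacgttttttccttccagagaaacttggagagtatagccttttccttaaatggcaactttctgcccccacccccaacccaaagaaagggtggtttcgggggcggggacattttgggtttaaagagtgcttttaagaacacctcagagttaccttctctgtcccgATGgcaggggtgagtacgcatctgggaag
Wnt3, chr11:103773925-103774224: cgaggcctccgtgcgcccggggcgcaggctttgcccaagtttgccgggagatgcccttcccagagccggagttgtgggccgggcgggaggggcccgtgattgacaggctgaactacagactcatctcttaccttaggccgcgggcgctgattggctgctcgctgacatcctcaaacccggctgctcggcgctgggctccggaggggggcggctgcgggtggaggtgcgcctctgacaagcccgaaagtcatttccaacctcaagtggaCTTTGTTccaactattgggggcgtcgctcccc

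The motifs searched, on both strands, were CTTTGAA and 3 forms that differ from it at the end, the first being CTTTGAT, the next being CTTTGTA and the last being CTTTGTT. They are letters that TCF/LEF factors are known to bind and that related SOX factors can bind as well. A match was found in 6 of 37 member promoters (16.2%), against 5544 of 32851 promoters in the table (16.9%). The 37 promoters belong to the 28 members that the table covers. Besides Wnt3, whose match begins at position 19 after the start, matches lay in windows of Fzd7, Lef1, Tcf7l2, Wnt11 and Wnt5b. These letters are not in the Axin2 and Wnt9a windows. The Wnt9a window is 83.3% GC with 58 CpG dinucleotides and the Axin2 window holds 31 CpG, against medians of 52.7% GC and 7 CpG over all promoters.

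Levels per transcript length (TPM) set the scale of each role. Wnt7b, a ligand known for vessel growth into the brain, was by far the highest ligand. Its level was 64.8, 68.3, 58.9 and 84.1 TPM in mutants 1 to 4, against 71.0, 82.5, 85.9 and 86.7 TPM in wild type 1 to 4. Only mutant 4 lay within the wild-type range. The share of Wnt7b in the summed ligand TPM averaged 61.6 ± 3.57% over the mutants and 67.1 ± 3.98% over wild type (SD, n = 4 each), and the shares overlapped. Wnt7a followed at 14.6 ± 0.701 TPM (mutants) and 13.4 ± 1.14 TPM (wild type), and Wnt5a, a ligand of the beta-catenin-independent branch, at 7.83 ± 0.902 TPM (mutants) and 8.52 ± 0.924 TPM (wild type). By wild-type mean the order went on through Wnt4 (4.91 TPM), Wnt6 (3.03 TPM), Wnt5b (2.82 TPM), Wnt3 (2.38 TPM) and Wnt9a (1.54 TPM). Over all 8 libraries Wnt7b and Wnt7a, Wnt7a and Wnt5a, and Wnt9a and Wnt16 were apart, and every other pair of neighbours in the order of ligands overlapped. The other 11 ligands averaged under 1 TPM in wild type. Wnt1, Wnt8a, Wnt9b and Wnt10a were near 0 and failed the filter on low counts, with 0 to 3 estimated reads for Wnt1 and for Wnt8a, 2 to 10 for Wnt9b and 4 to 11 for Wnt10a in any library.

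Among the receptors Fzd3, which is known for axon tract formation, led at 23.3 ± 2.92 TPM (mutants) and 20.6 ± 4.94 TPM (wild type). Fzd9 followed with a wild-type mean of 11.1 TPM, then Fzd1, Fzd2, Fzd6 and Fzd7 between 9.46 and 7.46 TPM, each overlapping its neighbour over all 8 libraries. Fzd8 (5.27 TPM), Fzd4 (2.42 TPM), Fzd10 (1.54 TPM) and Fzd5 (0.693 TPM) were lower, and among them only Fzd4 and Fzd10 overlapped. Lrp6, one of the coreceptors, was at 22.5 ± 1.31 TPM (mutants) and 24.0 ± 1.58 TPM (wild type), above Lrp5 at 7.89 ± 0.548 TPM (mutants) and 6.69 ± 0.921 TPM (wild type). Of the modulators, Sfrp1 (51.4 TPM) and Dkk3 (46.9 TPM) overlapped, and Sfrp2 (11.2 TPM) was lower, by wild-type mean. Ctnnb1, the gene of beta-catenin, was the highest of all members at 617 ± 11.02 TPM (mutants) and 599 ± 16.96 TPM (wild type). These sums include retained intron transcripts. Over all 8 libraries the coding transcript Ctnnb1-201 held 51.5% of the Ctnnb1 sum and the retained intron transcript Ctnnb1-215 held 32.6%. The retained intron transcript Lrp6-205 held 34.3% of the Lrp6 sum. The TCF/LEF factors were all under 10 TPM in every library. Summed over a role, the ligands held 111.7 ± 10.9 TPM (mutants) and 121.3 ± 4.30 TPM (wild type), the receptors 78.2 ± 3.36 TPM (mutants) and 75.4 ± 6.46 TPM (wild type), and the TCF/LEF factors 26.1 ± 2.87 TPM (mutants) and 23.2 ± 1.55 TPM (wild type).

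**Figure D1:**
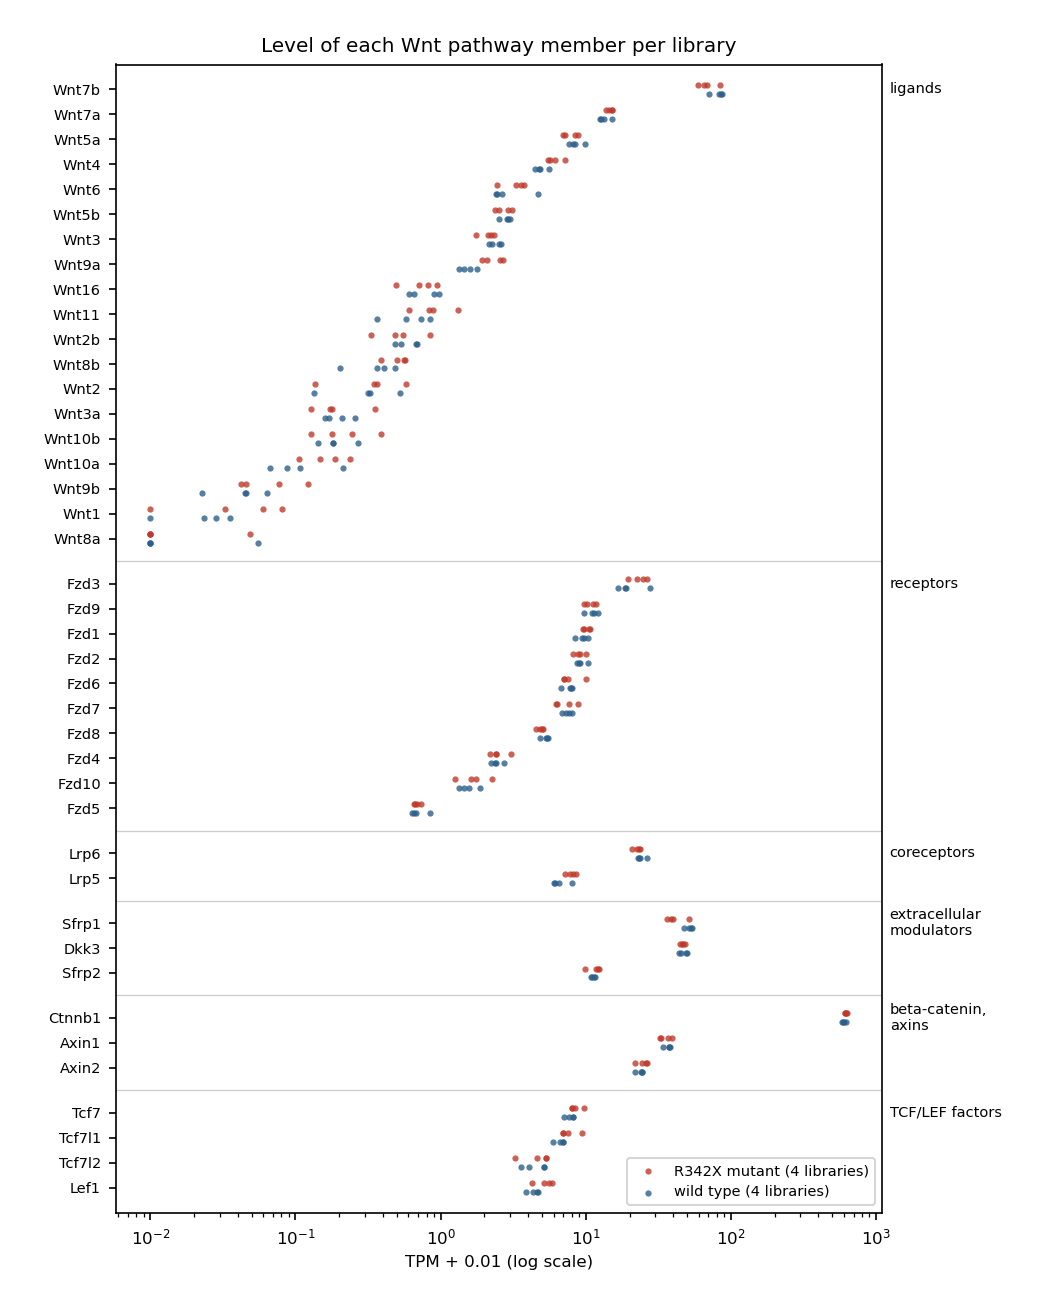
Level of each of the 41 members in each library, as TPM plus 0.01 on a log axis, by role and in order of the wild-type mean, with mutant points above wild-type points. Wnt7b stands above all other ligands and Ctnnb1 above all other members in both genotypes.

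Between genotypes no member of the set passed the edgeR quasi-likelihood test, in which a gene with an adjusted p under 0.05 over all genes is called. Of the 37 members tested, 0 were called, and over all genes 4 of 20097 were called (0.0199%). At unadjusted p under 0.05, 6 members (16.2%) passed, 3 higher and 3 lower in mutants, against 13.7% of all genes. The 3 higher were Wnt9a, Wnt4 and Axin2, and the 3 lower were Wnt7b, Fzd8 and Sfrp1. The CPM of mutants and wild type did not overlap in 3 members, Wnt9a and Axin2 (higher) and Fzd8 (lower), or 8.11%, against 6.15% of all genes. The median log2 fold change of the 37 was 0.03, against 0.00 over all genes, with 20 above 0 and 17 below. The 95% interval lay within 0.5 log2 units of 0 in 25 of the 37. DESeq2 called 1 of 30 members with an adjusted p, Wnt9a, against 2.63% of all genes with one. With the library set as a term in the edgeR fit, 0 members were called, against 0.602% of all genes, and 9 were under an unadjusted p of 0.05, 6 higher and 3 lower, against 13.7% of genes. Those 9 included Fzd6, Fzd10 and Tcf7l1 in addition to the 6 above. Leaving out mutant 4 brought 3 members under the threshold, Wnt9a, Wnt7b and Sfrp1, along with 699 of all genes (3.37%). No mutant is then left in set 2, and that fit has no term for the set. Its calls therefore mix genotype with library set. Leaving out mutant 2 or wild type 4 left 3 members under an unadjusted p of 0.05, or 8.11% and 8.33% of those tested, against 8.29% and 8.53% of all genes.

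**Figure D2:**
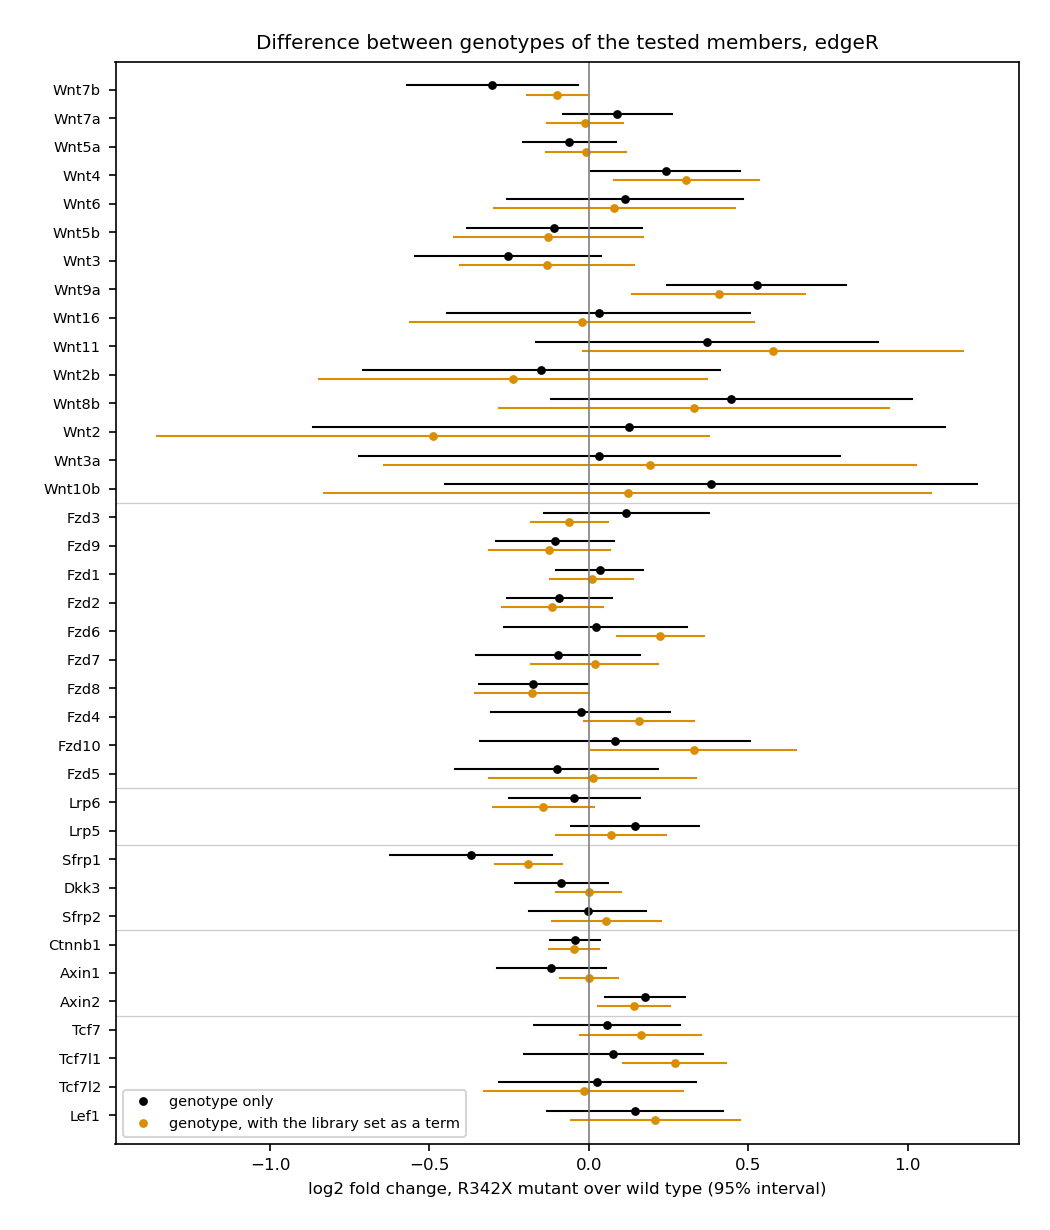
Log2 fold change of R342X mutant over wild type with its 95% interval for the 37 tested members, by role, from the fit with genotype only (black) and with the library set as a term (orange). Most intervals include 0 in both fits. Those of Wnt9a, Wnt4 and Axin2 lie above 0 in both fits, and those of Wnt7b, Fzd8 and Sfrp1 below it.

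Of the 15 ligands tested, 10 had a fold above 0 and 5 below. Wnt9a, a ligand known from skeletal development, had the largest fold and the smallest p of the members with genotype alone. With the set as a term Wnt11 had a larger fold, and Sfrp1, Tcf7l1 and Fzd6 had a smaller p. Wnt9a had 4.34, 4.53, 3.67 and 3.42 CPM in mutants 1 to 4, against 3.03, 2.64, 2.91 and 2.51 CPM in wild type 1 to 4. Every mutant library lay above every wild-type library, within both library sets as well. The means were 3.99 ± 0.529 CPM over the mutants and 2.77 ± 0.239 CPM over wild type (SD, n = 4 each). The log2 fold change was 0.53 ± 0.13 (SE, 95% interval 0.25 to 0.81, edgeR adjusted p = 0.187), which was not called. It was 0.46 in set 1 and 0.35 in set 2. DESeq2 gave the same fold with an adjusted p of 0.0127, the lowest of a range that reached 0.560 over all alternatives, and without mutant 4 edgeR gave 0.59 with an adjusted p of 0.0400. Each library held 116 to 214 estimated reads of Wnt9a.

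Wnt7b and Wnt4 were the other ligands under an unadjusted p of 0.05. Wnt7b had 101, 106, 97.2 and 139 CPM in mutants 1 to 4, against 112, 139.7, 145 and 150.1 CPM in wild type 1 to 4. The groups overlapped, because mutant 4 lay above wild type 1, and within each set every mutant lay below every wild type, mutant 4 (138.95 CPM) by under 1 CPM. Its log2 fold change was -0.30 ± 0.12 (edgeR adjusted p = 0.327), -0.14 in set 1 and -0.06 in set 2, and -0.10 ± 0.04 with the set as a term (adjusted p = 0.342). Without mutant 4 it was -0.43 with an adjusted p of 0.0415, a call that rests on leaving out that library, and in TPM mutant 4 lay above wild type 2. Beside this, the summed TPM of the 9 cortical projection neuron markers lay at 1274 to 1377 in mutants and 1420 to 1511 in wild type without overlap, and its part in these values was not tested. With genotype alone edgeR called none of the 9, while DESeq2 called Neurod6 and Neurod2 lower (adjusted p = 0.0115 and 0.0497) and Slc17a7 higher (adjusted p = 0.0390). With the set as a term edgeR called Neurod6 lower (adjusted p = 0.0305). In bulk tissue, fewer cells of a type and less RNA per cell cannot be told apart.

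Wnt4, a ligand known from kidney and gonad development, had 12.2, 15.5, 12.4 and 13.9 CPM in mutants 1 to 4, against 10.3, 10.6, 13.1 and 11.6 CPM in wild type 1 to 4. Wild type 3 overlapped the mutants, and the log2 fold change of 0.24 ± 0.11 was not called (edgeR adjusted p = 0.356). Within the sets it was 0.37 in set 1 and 0.24 in set 2. Wnt3, which is required early in the embryo, had 3.46, 2.71, 3.45 and 3.84 CPM in mutants 1 to 4, against 3.56, 4.31, 4.42 and 3.74 CPM in wild type 1 to 4. Its groups overlapped and its fold was -0.25 ± 0.13, with -0.16 in set 1 and -0.11 in set 2. Wnt8b, a ligand of the medial cortical margin, had 0.953, 0.652, 0.993 and 0.885 CPM in mutants 1 to 4, against 0.818, 0.745, 0.652 and 0.369 CPM in wild type 1 to 4. Wnt11, known from kidney branching, had 0.502, 0.652, 0.855 and 0.738 CPM in mutants 1 to 4, against 0.368, 0.470, 0.652 and 0.600 CPM in wild type 1 to 4. Both low ligands overlapped between genotypes, with folds of 0.45 ± 0.26 for Wnt8b and 0.37 ± 0.24 for Wnt11 that were not called. Wnt8b differed by 0.06 in set 1 and 0.65 in set 2, and Wnt11 by 0.83 in set 1 and 0.38 in set 2. The remaining ligands tested had folds between -0.15 and 0.38, and the intervals of Wnt2, Wnt3a and Wnt10b, each with few reads, were widest, running from -0.86 to 1.22 in all.

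Of the 10 receptors, 4 had folds above 0 and 6 below. Fzd3 had 168, 176, 156 and 138 CPM in mutants 1 to 4, against 186, 141, 133 and 127 CPM in wild type 1 to 4. The genotypes overlapped and the fold of 0.12 ± 0.12 turned to -0.06 with the set as a term, with -0.16 in set 1 and 0.04 in set 2. Without wild type 1, the highest library, it was 0.26 (edgeR adjusted p = 0.0797). No wild type is then left in set 1, so that value mixes genotype with library set. Fzd8, a receptor of the developing forebrain, had 7.95, 7.79, 7.97 and 7.55 CPM in mutants 1 to 4, against 8.63, 8.21, 9.20 and 9.23 CPM in wild type 1 to 4. All mutants lay below all wild-type libraries in CPM, with a fold of -0.17 ± 0.08 that was not called (edgeR adjusted p = 0.359), and the TPM overlapped. Fzd8 differed by -0.13 in set 1 and -0.23 in set 2. The other 7 receptors besides Fzd6 had folds from -0.11 (Fzd9) to 0.08 (Fzd10), and in 9 of the 10 receptors the 95% interval lay within 0.5 log2 units of 0.

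Fzd6 and Tcf7l1, which were chosen after their values were seen, differed more with the set as a term. Fzd6, a polarity receptor, had 14.2, 14.96, 14.6 and 20.4 CPM in mutants 1 to 4, against 13.1, 16.9, 15.7 and 17.5 CPM in wild type 1 to 4. Its fold was 0.02 ± 0.13 with genotype alone and 0.22 ± 0.06 with the set as a term (edgeR adjusted p = 0.131). Mutants lay above wild type within both sets, by 0.15 log2 units in set 1 and 0.29 in set 2. Without mutant 4 the fold with genotype alone was -0.12, and without wild type 1 it was -0.05. Markers of the choroid plexus, endothelium and meningeal fibroblasts were also highest in mutant 4. For 6 choroid plexus markers the summed TPM was 956 to 1332 in mutants and 819 to 1222 across wild type. For 8 endothelial markers it was 266 to 324 in mutants and 251 to 285 across wild type. For 7 meningeal fibroblast markers it was 198 to 296 in mutants and 183 to 233 across wild type. With the set as a term the median log2 fold change was 0.13 for the choroid plexus list, 0.19 for the endothelial list and 0.32 for the meningeal list. Of the meningeal list edgeR called Aldh1a2 higher in that fit (adjusted p = 0.0110). Lum of the meningeal list (-0.07) and Slco1c1 of the endothelial list (-0.03) had folds below 0 there. The summed endothelial and meningeal markers were higher in mutants than in wild type within set 1 as well, and the choroid plexus sum was lower there. Most of the choroid plexus sum was Ttr, at 924 to 1296 TPM in mutants and 796 to 1186 TPM in wild type. The choroid plexus marker Prlr was under 1 TPM in every library. The part of these cells in the values of Fzd6 was not tested.

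The coreceptors, modulators and scaffolds followed. Lrp5 and Lrp6 bind ligand together with a Frizzled receptor. Lrp5 had 19.9, 21.2, 20.5 and 21.2 CPM in mutants 1 to 4, against 22.4, 16.5, 18.4 and 17.7 CPM in wild type 1 to 4. Lrp6 had 61.7, 72.3, 64.3 and 64.8 CPM in mutants 1 to 4, against 82.0, 65.8, 63.2 and 60.6 CPM in wild type 1 to 4. In both genes wild type 1 was the highest library and the groups overlapped, with folds of 0.15 ± 0.09 for Lrp5 and -0.05 ± 0.09 for Lrp6. Lrp5 differed by -0.13 in set 1 and 0.28 in set 2, and Lrp6 by -0.31 in set 1 and 0.04 in set 2. Without wild type 1 the fold was 0.25 for Lrp5 (edgeR adjusted p = 0.0671), whose groups then did not overlap, and 0.06 for Lrp6. These folds mix genotype with library set, because no wild type is then left in set 1. With all libraries and the set as a term the fold of Lrp5 was 0.07. Dkk3, a secreted Dickkopf relative, had 80.6, 79.1, 80.8 and 88.6 CPM in mutants 1 to 4, against 78.9, 95.5, 90.8 and 84.3 CPM in wild type 1 to 4. Its groups overlapped, and its fold of -0.09 ± 0.07 was -0.00 with the set as a term, with 0.02 in set 1 and -0.02 in set 2. Sfrp2, a relative of Sfrp1, had a fold of -0.00 ± 0.08, and Axin1, the main scaffold of the destruction complex, one of -0.12 ± 0.08.

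Sfrp1, a secreted protein that binds Wnt ligands, had the largest negative fold among the members with genotype alone, while with the set as a term that of Wnt2 was larger (-0.49 ± 0.40). Sfrp1 had 86.6, 89.3, 84.9 and 122 CPM in mutants 1 to 4, against 107, 131, 125 and 131 CPM in wild type 1 to 4. The pooled groups overlapped at mutant 4 and wild type 1, but mutants lay below wild type within both sets. The fold was -0.37 ± 0.11 (edgeR adjusted p = 0.250), with -0.30 in set 1 and -0.08 in set 2, and -0.19 ± 0.05 with the set as a term (adjusted p = 0.0995). Without mutant 4 it was -0.51 with an adjusted p of 0.0180, the lowest of a range that reached 0.604.

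Axin2, a scaffold of the destruction complex and a common feedback target of the pathway, had 32.1, 32.8, 31.5 and 32.6 CPM in mutants 1 to 4, against 30.8, 27.8, 28.9 and 26.7 CPM in wild type 1 to 4. Mutants lay above wild type in every library, with a fold of 0.17 ± 0.06 (edgeR adjusted p = 0.262), and 0.06 in set 1 against 0.23 in set 2. The TPM of Axin2 overlapped, at 21.7 to 26.6 in mutants and 21.7 to 24.5 in wild type. With the average transcript length as an offset the fold was 0.01 ± 0.07 (edgeR adjusted p = 0.977). The transcript Axin2-201 had 9.92, 9.59, 9.70 and 7.04 TPM in mutants 1 to 4, against 9.35, 4.82, 5.43 and 3.57 TPM in wild type 1 to 4. It was higher in set 1 than in set 2 in both genotypes, and the processed transcript Axin2-203 was lower in set 1. Ctnnb1 had 753, 751, 779 and 752 CPM in mutants 1 to 4, against 782, 790.4, 793 and 762 CPM in wild type 1 to 4. Its groups overlapped, and its fold of -0.04 ± 0.04 (-0.04 in set 1 and -0.06 in set 2) turned to 0.04 in the fit on log2(TPM + 0.5).

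**Figure D3:**
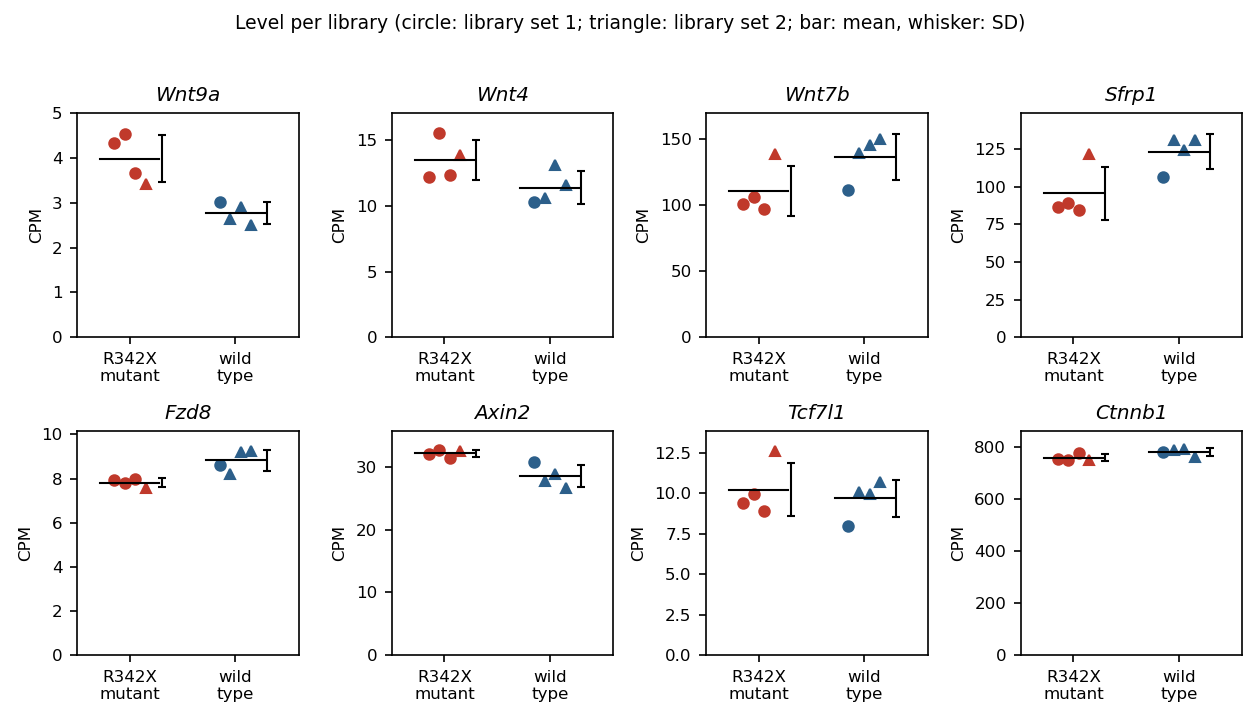
CPM per library of 8 members, mutants at the left and wild type at the right of each panel, with circles for set 1, triangles for set 2, a bar for the mean and whiskers for the SD. Wnt9a, Axin2 and Fzd8 do not overlap between genotypes, and the mutant triangle is the highest mutant point in Wnt7b, Sfrp1 and Tcf7l1.

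All 4 TCF/LEF factors had folds above 0 in the fit with genotype alone, from 0.03 to 0.15, and 0 were under an unadjusted p of 0.05. Without mutant 4 the folds of Tcf7 and Tcf7l1 were -0.03 and -0.04. Tcf7l1, known mainly as a repressor of Wnt targets, had 9.41, 9.97, 8.91 and 12.6 CPM in mutants 1 to 4, against 7.98, 10.1, 9.96 and 10.7 CPM in wild type 1 to 4. The pooled groups overlapped, and mutants lay above wild type within both sets, by 0.24 log2 units in set 1 and 0.30 in set 2. Its fold was 0.08 ± 0.13 with genotype alone (edgeR adjusted p = 0.789) and 0.27 ± 0.07 with the set as a term (adjusted p = 0.125). In the authors' deposited table, whose model is not stated, Tcf7l1 had a log2 fold change of 0.29 with an adjusted p of 0.0237, the only member of the 30 with an adjusted p there to be under 0.05, against 2.78% of genes. In that same authors' deposited table the fold of 35 members was under 0.1 in size. That of Wnt9a was 0.04 ± 0.07 (SE), yet with an unadjusted p of 0.0135 and an adjusted p of 0.194 there. Whether these folds were shrunken is not stated, so their size cannot be set beside the edgeR folds. Tcf7, best known from T cells, had 9.08, 9.26, 9.46 and 11.6 CPM in mutants 1 to 4, against 8.86, 8.65, 9.86 and 10.5 CPM in wild type 1 to 4, and its groups overlapped, with differences of 0.06 in set 1 and 0.26 in set 2. Lef1, known for hippocampal development, had 6.32, 7.40, 8.69 and 9.24 CPM in mutants 1 to 4, against 7.26, 6.43, 7.78 and 7.10 CPM in wild type 1 to 4, with a fold of 0.15 ± 0.12. The groups of Lef1 overlapped, with mutants 3 and 4 above all wild-type libraries and mutant 1 below them, and differed by 0.03 in set 1 and 0.38 in set 2. Tcf7l2, known from the thalamus, had a fold of 0.03 ± 0.14.

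The share of the leading transcript of each TCF/LEF gene did not pass an exact two-sided permutation test over libraries, in which the smallest possible p is 0.0286. For Lef1-202 the share was 38.6 ± 4.75% in mutants and 37.0 ± 17.95% in wild type (exact permutation p = 0.8286, the same after Benjamini-Hochberg adjustment over the 4 genes). For Tcf7-201, Tcf7l1-201 and Tcf7l2-210 the differences in mutants were -4.42, -5.43 and -8.34 percentage points, each with an adjusted p of 0.533. Chosen after the values were seen, Lef1-203 had 1.57, 2.12, 1.86 and 1.96 TPM in mutants 1 to 4, against 0.971, 0.916, 1.33 and 1.42 TPM in wild type 1 to 4. Every mutant was above every wild type, a description with no test. Lef1-203 begins at chr3 position 131112797, in the downstream window printed above, where its start codon at 131112812 is in capitals, while the other 3 Lef1 transcripts compared begin at 131110471, which lies outside the printed upstream window. Of 55 member transcripts with a mean of at least 1 TPM, it was the only one with mutants all higher, and the retained intron transcript Ctnnb1-206 was the only one with mutants all lower. These make 3.64% of the 55, against 4.49% of all transcripts at that level.

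**Figure D4:**
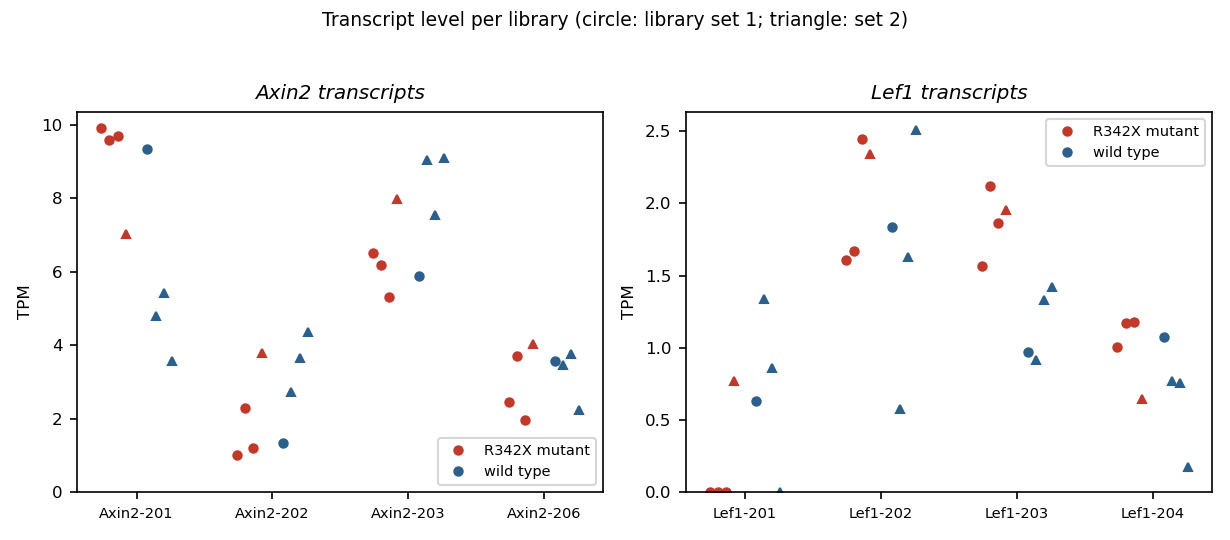
TPM per library of 4 transcripts each of Axin2 and Lef1, mutants left of wild type, with circles for set 1 and triangles for set 2. Axin2-201 is higher in set 1 than in set 2 within each genotype, and the mutant points of Lef1-203 all lie above its wild-type points.

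The rest of the pathway was read from a list of 74 further genes, of which 71 were tested. In the fit with genotype alone 0 were called, and 15 (21.1%) were under an unadjusted p of 0.05, 9 higher and 6 lower, against 13.7% of all genes. Their median log2 fold change was 0.00. The CPM of mutants and wild type did not overlap in 10 of the 71 (14.1%), 6 higher and 4 lower, against 6.15% of all genes. With the set as a term 2 of the 71 were called, against 0.602% of all genes. Draxin, a secreted antagonist and axon guidance factor, had 133, 133, 129.6 and 127 CPM in mutants 1 to 4, against 157, 157, 151 and 139 CPM in wild type 1 to 4. It was lower in mutants without overlap, with a fold of -0.24 ± 0.05 in that fit (edgeR adjusted p = 0.0363). Apcdd1, a membrane inhibitor of Wnt signalling, had 84.8, 82.3, 86.8 and 116 CPM in mutants 1 to 4, against 75.2, 84.7, 94.6 and 92.4 CPM in wild type 1 to 4. It overlapped over all libraries and was higher in mutants within both sets, with a fold of 0.26 ± 0.05 in that fit (edgeR adjusted p = 0.0447). When 1 library was left out of that fit, Draxin was called in 1 of 8 fits, and Apcdd1 in 0 of 8. DESeq2 with genotype alone called 3 of the list, against 2.63% of all genes, Draxin, the Dickkopf-like Dkkl1 and Notum, an enzyme that removes the lipid from Wnt ligands. By role, with genotype alone, 4 of 14 genes listed as antagonists were higher and 1 lower at unadjusted p under 0.05, with Dkkl1 at 0.71 ± 0.15. Whether Dkkl1 acts as a Wnt antagonist was not tested. In the R-spondin arm 2 of 8 were higher, with the receptor Lgr4 at 0.20 ± 0.06. Of 16 cytoplasmic genes 1 was lower, the kinase Csnk1e at -0.18 ± 0.07. Of 10 nuclear cofactors 2 were lower, with the corepressor Tle1 at -0.14 ± 0.06. Of 13 alternative receptor and polarity genes 1 was higher and 1 lower, the cadherin Celsr1 at -0.49 ± 0.15. Of 8 frequent target genes 2 were higher and 1 lower, Id2 at -0.28 ± 0.08. Of the 2 ligand secretion genes 0 were under 0.05, and Porcn, the enzyme that attaches the lipid, was at -0.17 ± 0.08. None of these single values was called by edgeR with genotype alone.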

How the data were processed

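RNA of 8 postnatal day 0 cortex libraries was sequenced. Per the file headers, each file the authors deposited gives, for every transcript, an effective length, a TPM value and an estimated count (expected reads). The submitters' processing notes name Salmon 0.12.0, DESeq2 and the GRCm38 build. Read filters, bias options and any use of strand are not stated. A further deposited table holds, per its header, a mean normalized signal, log2 fold changes with standard errors, and p-values, and the sources used here do not give its model or any shrinkage.

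Transcript values were added up by gene identifier, which for the members is the same as by symbol. The estimated counts were then rounded, and 20097 genes passed the default filter of edgeR. The two-sided quasi-likelihood F test (edgeR 4.0.16, TMM, R 4.3.3) compared genotypes, with Benjamini-Hochberg adjustment over all genes tested and 0.05 as the threshold, after a check on simulated counts. Of 136202 transcripts, 134907 (99.0%) matched GENCODE M21, and 141 of 147 member transcripts did. Exact permutation tests used scipy 1.17.1. Mutant libraries were shallower, so low genes rest on fewer reads there. Alternatives were DESeq2 1.42.0, RLE factors, other filters, length offsets, limma 3.58.1 on log2(TPM + 0.5) or log2(TPM + 0.1), the replicate number as a block, the library set as a term, and each library left out.

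Per-library values are given for members called in any fit, the 10 of smallest p, the one of highest mean TPM in each role, and Ctnnb1, Axin2 and Lef1, with Fzd6 and Tcf7l1 added after their values were seen. Other pathway genes are named where called with genotype alone or with the set, otherwise the one of smallest p in each role. The genes called by DESeq2 alone are named besides. Members and lists were chosen with earlier results of these data known.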

Additional observations from a re-analysis of the deposited data

Results flagged for a closer look

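In 36 groups of 4 libraries checked, 4 held a library that stood apart from the other 3 of its genotype. Chance flags about 1 in 20 independent groups. That rate does not strictly apply here, because the groups share libraries and Fzd6 was chosen after its values were seen. Fzd6 in mutant 4 was at 20.4 CPM, against 14.2 to 14.96 CPM in the other mutants. Sfrp1 in mutant 4 was at 122 CPM, against 84.9 to 89.3 CPM in the other mutants. Tcf7 in mutant 4 was at 11.6 CPM, against 9.08 to 9.46 CPM in the other mutants. Ctnnb1 in mutant 3 was at 779 CPM, against 751 to 753 CPM in the other mutants. Mutant 4 is the only mutant in library set 2. For Fzd6, Sfrp1 and Tcf7, a trait of the set and one of that single library cannot be told apart. Mutant 3, flagged for Ctnnb1, is in set 1 with mutants 1 and 2.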

How the results depend on the processing

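All 8 libraries were left out in turn. The number of members called by edgeR was then 0 to 3 (the 3 were Wnt9a, Wnt7b and Sfrp1, without mutant 4), members under an unadjusted p of 0.05 numbered 3 to 7 (of 35 to 37 tested, against 7.93% to 27.7% of all genes in those fits), the median log2 fold change of the members was -0.0386 to 0.0508, and 0 to 3 other pathway genes and 3 to 699 of all genes were called, the highest counts of calls without mutant 4. Without wild type 1 the count of all genes was 14. Leaving out mutant 4 leaves no mutant in set 2, and leaving out wild type 1 leaves no wild type in set 1. The fits of genotype alone without either library therefore mix genotype with set. DESeq2 called 1 member, 3 other pathway genes and 406 of all genes. Without a filter on low counts 13 of all genes were called. With the library set as a term 2 other pathway genes and 121 of all genes were called, and 0 to 1 of those pathway genes when a library was also left out. The deviations of same-numbered libraries from their genotype mean correlated at 0.24, -0.03, -0.08 and 0.32 for numbers 1 to 4. Libraries of the same set deviated together, which was largely fixed in advance because the sets were drawn from the same values. Mutants 1 to 3 against wild type 1 were at 0.24, 0.20 and 0.13. Mutant 4 against wild type 2 to 4 was at 0.14, 0.18 and 0.32. This check therefore cannot say whether the numbers pair the libraries. With the replicate block 20 of all genes and 0 members were called. Fzd3 turned to -0.0609 with the set as a term, and Ctnnb1 to 0.0420 on log2(TPM + 0.5) and on log2(TPM + 0.1). Leaving out each library, the fold ran from -0.116 to 0.0789 for Fzd6, -0.0975 to 0.0623 for Lrp6, -0.0309 to 0.107 for Tcf7 and -0.0385 to 0.145 for Tcf7l1, and the share of Lef1-202 from -5.78 to 8.77 percentage points. The cause was not tested. Among single genes and shares, 324 alternative values kept their direction and side of the threshold and 4 newly passed it, Wnt9a with DESeq2 and the 3 members named above without mutant 4. The stricter filter (5 CPM in at least 4 libraries) does not test Wnt9a, Wnt3, Wnt8b and Wnt11. Most low ligands have intervals too wide to show a small difference.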
